A study of Mus musculus with 4 samples.

Results

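Fos, Fosb, Jun, Junb, Egr1, Atf3, Ier2, Ier3, Myc and Nr4a1 belong to the immediate early response genes, and these 10 of the 55488 genes counted were compared between liver cells of 4 genotypes. They were chosen by name, and each of the 10 symbols was found once in the gene lists of the 4 libraries. Immediate early genes are transcribed within minutes of a stimulus and without new protein synthesis. Growth factors, cytokines, mechanical strain, heat and tissue damage induce them, and so does enzymatic dissociation of tissue into single cells. Their transcripts are short-lived, so that a level reflects the state of a cell shortly before lysis.

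The libraries came from the livers of 4 untreated mice, 1 of each genotype. In YAPKO, TAZKO and DKO mice, Cre recombinase under the albumin promoter removes floxed Yap, floxed Taz or the pair from HCs and BECs, and the WT mouse was genetically unmodified. HCs and NPCs were isolated separately after collagenase perfusion, mixed and loaded for 10x 3′ sequencing, and the age of these mice was not given in the sources used here. Because 1 mouse stands for each genotype, every comparison is between libraries.

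Of 44974 barcodes, 30362 were kept as cells, those with no fewer than 500 and no more than 6000 genes and a mitochondrial share of UMIs up to 10%. These were 7155 cells of WT, 6275 of YAPKO, 8638 of TAZKO and 8294 of DKO. The kept cells had a median of 4618 UMIs in WT, 7337 in YAPKO, 3555.5 in TAZKO and 5952.5 in DKO, so that YAPKO cells were deepest and TAZKO cells shallowest. Their median mitochondrial share was 0.982% in WT, 1.06% in YAPKO, 1.22% in TAZKO and 1.00% in DKO. Between 9 and 26 kept barcodes were shared by any pair of libraries, with WT and TAZKO sharing the largest number. Levels are given as UMIs per 1000000 UMIs of the same cells (CPM), and ratios to WT as log2 ratios. All intervals are exact at 95% and cover counting error only.

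As a check of the library labels, the genes targeted in HCs were compared first. Yap1 was 21.5 CPM (19.4 to 23.7) in WT HCs, 4.74 (3.77 to 5.89) in YAPKO, 47.2 (43.7 to 51.0) in TAZKO and 4.50 (3.79 to 5.31) in DKO. Wwtr1, which encodes TAZ, was 5.22 CPM (4.25 to 6.36) in WT, 13.3 (11.6 to 15.1) in YAPKO, 2.74 (1.94 to 3.75) in TAZKO and 2.35 (1.84 to 2.95) in DKO. Each gene was thus lowest in the libraries named for its deletion. Counts near the 3′ end may lie outside the deleted part of a gene, so that this check shows little about intact transcripts.

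Clustering of the kept cells and markers of each type gave 12 types, namely HCs, ECs, HSCs, BECs, KCs, neutrophils, macrophages, plasmacytoid and conventional dendritic cells, NK cells, B cells and T cells. Cluster 10 had KC markers but 56.2% of its cells were among the top doublet scores, and by a limit set after the clusters were seen it was kept out of the KCs. It held 2.46% of the cells of WT, 3.01% of YAPKO, 2.76% of TAZKO and 3.09% of DKO. HCs numbered 2204 in WT, 1217 in YAPKO, 3032 in TAZKO and 3029 in DKO, ECs 2076, 1386, 1827 and 1323, and KCs 566, 528, 1091 and 622 in the same order. HSCs numbered 322, 139, 191 and 137, and BECs 53, 32, 28 and 6, so that BECs of DKO were not compared. All markers listed for a type were found in the cells of that type, with Alb the most abundant of the 8 HC markers, Ptprb of the 9 EC markers, Clec4f of the 7 KC markers and Dcn of the 9 HSC markers. The HSC cluster also carried EC transcripts. Its cells had 12846 CPM of HSC markers in WT, 11006 in YAPKO, 13818 in TAZKO and 12295 in DKO, beside 10864, 11713, 8247 and 7744 CPM of EC markers. When cells were assigned one by one from markers, 520 cells of this cluster fell to ECs, 85 to HSCs and 174 to no type, so that levels given for HSCs include EC RNA.

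The 10 genes together had 163964 UMIs or 718 CPM over the kept cells, and 75.5% of cells had at least 1 of these UMIs. Junb supplied 22.1% of them, Jun 20.4%, Fos 18.2%, Egr1 14.0% and Ier2 10.6%, whereas Ier3 (4.34%), Fosb (2.85%), Nr4a1 (2.77%), Atf3 (2.62%) and Myc (2.16%) were scarce. By library, the summed level was 794 CPM in WT, 682 in YAPKO, 555 in TAZKO and 791 in DKO. These sums depend on the mixture of cell types, and the types differed widely.

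As means of the library values, the summed level was 4399 CPM in neutrophils, 2978 in BECs, 1310 in macrophages, 1106 in conventional dendritic cells, 777 in KCs, 753 in HSCs, 691 in NK cells, 572 in ECs, 547 in B cells, 507 in T cells, 476 in plasmacytoid dendritic cells and 448 in HCs. Library ranges of neighbours in this order overlapped, except between BECs and macrophages and between conventional dendritic cells and KCs. Junb and Fos led in neutrophils, with means of 1429 and 1069 CPM. Over all UMIs of HCs, Egr1 was the most abundant member in every library and supplied 36.4% of the member UMIs in WT, 35.1% in YAPKO, 37.1% in TAZKO and 23.4% in DKO. With each HC thinned to 1000 UMIs, Jun led in WT (94.8 CPM against 93.5 for Egr1) and DKO (92.9 against 86.8). In ECs, Fos led in WT (28.1%) and Jun in YAPKO (34.2%), TAZKO (46.5%) and DKO (37.6%). T cells, B cells and NK cells were led by Junb in all 4 libraries.

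**Figure D1:**
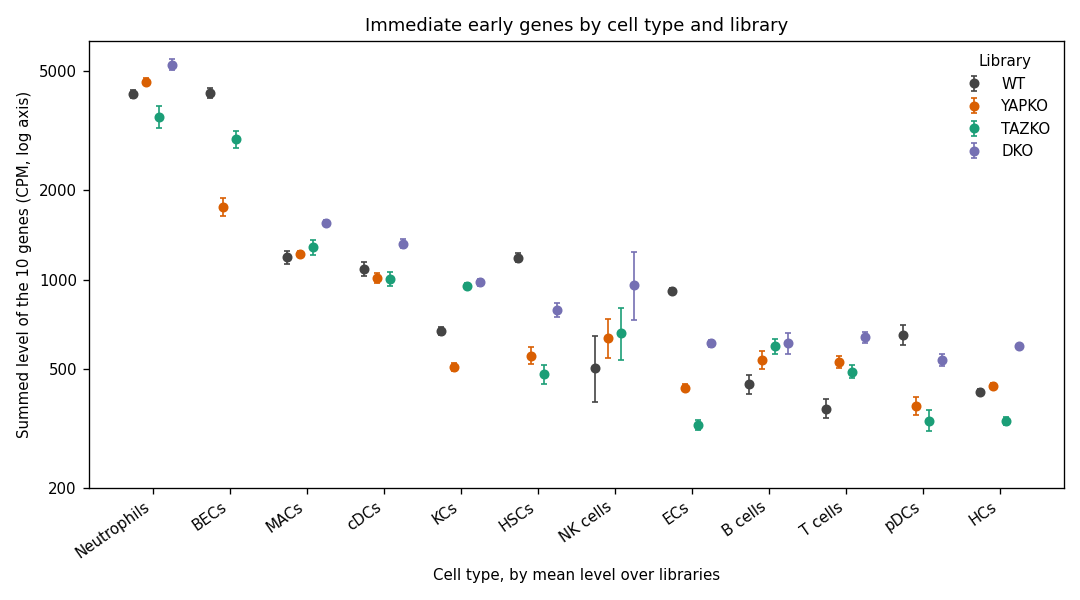
Summed level of the 10 genes by cell type and library. The means ranged from 4399 CPM in neutrophils to 448 CPM in HCs.

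In ECs the summed level was 918 CPM (900.1 to 936) in WT, 434 (422 to 447) in YAPKO, 326 (313 to 339) in TAZKO and 612 (595 to 629) in DKO. This gave log2 ratios to WT of -1.08 (-1.13 to -1.03), -1.49 (-1.56 to -1.43) and -0.59 (-0.64 to -0.54). All 3 knock-out libraries were lower than WT, and these ratios share the same WT cells. HSCs had the same order, with 1184 CPM (1144 to 1226) in WT, 555 (520.0 to 593) in YAPKO, 480.5 (445 to 518) in TAZKO and 790.1 (748 to 834) in DKO. Their ratios were -1.09 (-1.20 to -0.99), -1.30 (-1.42 to -1.18) and -0.58 (-0.68 to -0.49). KC markers in these HSCs were 1203 CPM in WT, 224 in YAPKO, 1946 in TAZKO and 1432 in DKO. Neutrophil markers were 488, 332, 369 and 1036 CPM, and top doublet scores were found in 7.14%, 2.88%, 6.81% and 21.2% of the HSCs. In BECs, WT was again highest, with 4222 CPM against 1756 in YAPKO and 2956 in TAZKO, or ratios of -1.27 (-1.38 to -1.15) and -0.51 (-0.63 to -0.40). Top doublet scores were found in 34.0% of these BECs in WT, 21.9% in YAPKO and 7.14% in TAZKO. RNA of other types differed between these BECs too, with EC markers at 5433 CPM in WT, 1179 in YAPKO and 4918 in TAZKO, and neutrophil markers at 74.0, 6024 and 83.4 CPM. Assigned one by one, 66 BECs read as BECs and 45 as ECs, so that the BEC levels include RNA of other types.

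KCs and HCs had other orders of the libraries. In KCs the sum was 672 CPM (652 to 693) in WT, 508 (492 to 523) in YAPKO, 950.4 (926 to 976) in TAZKO and 978 (953 to 1003) in DKO. The ratios were -0.41 (-0.47 to -0.34), 0.50 (0.44 to 0.56) and 0.54 (0.48 to 0.60), so that TAZKO and DKO were higher than WT and YAPKO lower. Cluster 14, which scored best as KCs but was left unnamed (mean z 0.99), had another order. Its sums were 812 CPM in WT, 612 in YAPKO, 536 in TAZKO and 755 in DKO. HCs had 419 CPM (409.9 to 428) in WT, 440.3 (430.4 to 450.3) in YAPKO, 335 (325 to 345) in TAZKO and 597 (589 to 606) in DKO. Their ratios were 0.07 (0.03 to 0.12), -0.32 (-0.38 to -0.27) and 0.51 (0.47 to 0.55), with DKO highest and TAZKO lowest. These HC directions turned under alternatives. TAZKO was at 0.36 with the limits of 500 and 6000 read as UMIs and 0.25 thinned to 1000 UMIs. In HC cluster 1 it was at 0.79, and in cluster 3 at 0.11. Cluster 1 was the largest HC cluster of WT, YAPKO and DKO by cells, but cluster 6 held the largest share of HC UMIs in every library. DKO was at -0.07 with the UMI limits and -0.13 in cluster 1. The UMI limits changed the set of HCs, to 7209 in WT, 1237 in YAPKO, 6975 in TAZKO and 1885 in DKO, and left out all barcodes above 6000 UMIs. YAPKO was at -0.21 in cluster 1 and -0.09 in cluster 6, and the clusters were chosen as alternatives after the data were seen.

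The median log2 ratio of all tested genes in HCs was 0.43 in YAPKO, 0.60 in TAZKO and 0.47 in DKO. Relative to this median, the HC sums were -0.36, -0.93 and 0.04 in the same order, so that DKO stood near the median gene and YAPKO and TAZKO stood lower. In TAZKO the median was also 0.17 in ECs, 0.27 in KCs and 0.18 in HSCs, which gave -1.67, 0.23 and -1.48 relative to it. For YAPKO and DKO the medians in ECs, KCs and HSCs lay between -0.05 and 0.06.

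Among the other immune cells, the sums of T cells were 368 CPM in WT, 529 in YAPKO, 491 in TAZKO and 639 in DKO, with ratios of 0.52 (0.40 to 0.65), 0.42 (0.29 to 0.54) and 0.80 (0.67 to 0.92). B cells had 445, 538, 597 and 610.4 CPM, with ratios of 0.27 (0.13 to 0.42), 0.42 (0.29 to 0.56) and 0.46 (0.30 to 0.61). In both lymphocyte types WT was lowest. Markers of other types differed as well, with NK cell markers in T cells at 1352 CPM in WT, 930.1 in YAPKO, 488 in TAZKO and 345 in DKO, and macrophage markers in B cells at 43.3, 77.3, 92.9 and 348 CPM. One by one, 116 of the T cells read as NK cells. In plasmacytoid dendritic cells WT was highest, with 653 CPM in WT, 376 in YAPKO, 336 in TAZKO and 537 in DKO. Their ratios were -0.80 (-0.95 to -0.65), -0.96 (-1.12 to -0.80) and -0.28 (-0.41 to -0.15), the same order as in ECs. These cells carried 3894, 3827, 2633 and 3536 CPM of EC markers, and one by one 692 read as plasmacytoid dendritic cells, 146 as ECs and 121 as no type. Top doublet scores were found in 32.1% of them in WT, 23.9% in YAPKO, 14.6% in TAZKO and 14.6% in DKO. Macrophages ranged from 1187 CPM in WT to 1549 in DKO, while their own markers were 19977 CPM in WT, 20931 in YAPKO, 12946 in TAZKO and 9222 in DKO and neutrophil markers in them 104, 1488, 71.0 and 113. The sum in conventional dendritic cells ranged from 1006 in TAZKO to 1320 in DKO. One by one, 834 macrophages read as such, 184 as ECs and 146 as KCs, and 277 conventional dendritic cells read as such, 76 as ECs, 64 as macrophages and 192 as no type. NK cells, with 24 to 74 cells per library, ranged from 506 CPM in WT to 961 in DKO. Their own markers were 20338 CPM in WT, 22067 in YAPKO, 13581 in TAZKO and 9590 in DKO, and T cell markers in them 498, 429, 484 and 1710. Neutrophils, with 3523 to 5266 CPM, exceeded all other types in each library, apart from BECs in WT. The TAZKO neutrophils, 54 cells, were less pure, with neutrophil markers at 145041 CPM in WT, 156168 in YAPKO, 32715 in TAZKO and 98230 in DKO, T cell markers at 57.7 CPM in WT and 616 in TAZKO, and top doublet scores in 6.79% and 16.7% of cells. Medians of all genes above 0.1 were 0.22 and 0.12 in macrophages of TAZKO and DKO, 0.28 and 0.26 in neutrophils, 0.19 and 0.12 in T cells, and 0.21 and 0.16 in B cells. Conventional dendritic cells had 0.12 in YAPKO, 0.19 in TAZKO and 0.13 in DKO. Relative to these medians, the sums in TAZKO and DKO were 0.23 and 0.67 in T cells, 0.21 and 0.30 in B cells, -0.53 and 0.06 in neutrophils and -0.11 and 0.26 in macrophages. In conventional dendritic cells they were -0.22 in YAPKO, -0.30 in TAZKO and 0.15 in DKO.

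Sequences of 250 bases upstream of the transcript start were taken from the RefSeq annotation of mouse build GRCm38.p6, and 7 of the 10 members were matched, which left Egr1, Ier2 and Myc without a sequence. Those of Fos (chr12:85473640-85473889, plus strand), Fosb (chr7:19310046-19310295, minus strand), Junb (chr8:84978749-84978998, minus strand) and Nr4a1 (chr15:101266596-101266845, plus strand) are printed with motif matches in capitals. They were chosen because each holds TGACG and each gene was at least 2-fold lower over all UMIs in ECs of TAZKO than of WT.
Fos: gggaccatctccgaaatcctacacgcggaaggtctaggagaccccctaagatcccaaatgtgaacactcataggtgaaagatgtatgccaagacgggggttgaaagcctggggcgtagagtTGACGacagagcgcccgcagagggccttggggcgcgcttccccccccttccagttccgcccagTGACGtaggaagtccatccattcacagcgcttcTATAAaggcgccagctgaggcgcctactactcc
Fosb: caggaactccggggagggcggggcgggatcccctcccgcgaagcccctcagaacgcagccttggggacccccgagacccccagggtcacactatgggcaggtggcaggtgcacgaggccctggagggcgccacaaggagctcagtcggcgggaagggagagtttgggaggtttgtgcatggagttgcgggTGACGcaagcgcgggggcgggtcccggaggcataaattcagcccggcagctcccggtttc
Junb: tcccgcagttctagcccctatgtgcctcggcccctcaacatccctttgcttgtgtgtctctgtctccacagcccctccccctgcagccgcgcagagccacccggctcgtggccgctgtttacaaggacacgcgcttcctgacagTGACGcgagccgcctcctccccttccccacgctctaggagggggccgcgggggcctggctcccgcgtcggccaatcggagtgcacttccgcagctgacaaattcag
Nr4a1: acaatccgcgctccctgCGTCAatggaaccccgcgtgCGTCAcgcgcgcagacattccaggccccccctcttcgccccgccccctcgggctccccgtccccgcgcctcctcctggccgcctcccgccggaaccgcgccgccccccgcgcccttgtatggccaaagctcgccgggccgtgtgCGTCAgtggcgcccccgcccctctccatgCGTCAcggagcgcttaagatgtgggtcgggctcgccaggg
The Nr4a1 window lay within the annotated gene but in 0 annotated exon bases, that of Fosb overlapped an annotated exon by 6 bases, and those of Fos and Junb overlapped none. Motifs were chosen after the sequences were seen, were read on either strand, and describe sequence only. TGACG, the core of a cAMP response element (CGTCA on the other strand), was present in 5 of the 7, namely Fos, Fosb, Junb, Atf3 and Nr4a1, and in 17.8% of 32851 promoters. TATAA was present in Fos and Ier3 and in 22.8% of promoters. The full element TGACGTCA, which contains TGACG, was present in 0 of the 7 and in 1.55% of promoters. The AP-1 site TGANTCA was present in 0 of the 7 and in 6.75%, and the CArG box in 0 of the 7 and in 1.47%.

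Fos and Fosb encode subunits of the AP-1 dimer that bind DNA together with a JUN protein, and TGACG precedes both genes. Fos in ECs was 258 CPM (248 to 268) in WT, 25.9 (23.0 to 29.1) in YAPKO, 21.5 (18.3 to 25.1) in TAZKO and 46.8 (42.2 to 51.7) in DKO. Against WT this was -3.32 (-3.50 to -3.14) in YAPKO, -3.58 (-3.83 to -3.35) in TAZKO and -2.46 (-2.62 to -2.31) in DKO. WT was thus highest, by 9.97-fold over YAPKO. Fos in HSCs was 310.0 CPM in WT, 62.2 in YAPKO, 41.4 in TAZKO and 112 in DKO, with ratios of -2.32 (-2.63 to -2.02), -2.90 (-3.31 to -2.52) and -1.47 (-1.71 to -1.24). In plasmacytoid dendritic cells it was 204 CPM in WT, 48.5 in YAPKO, 29.1 in TAZKO and 68.6 in DKO. WT was highest in these types too. T cells differed, with 6.10 CPM from 12 UMIs in WT, 16.3 in YAPKO, 30.9 in TAZKO and 27.7 in DKO, where WT was lowest. Fos in KCs was 186 CPM in WT, 117 in YAPKO, 197 in TAZKO and 213 in DKO, with YAPKO lowest at -0.67 (-0.79 to -0.54) and DKO slightly higher than WT at 0.20 (0.08 to 0.31). HCs had 62.2 CPM in WT, 42.9 in YAPKO, 32.2 in TAZKO and 94.9 in DKO, so that YAPKO and TAZKO were lower than WT and DKO higher. Fos in TAZKO was at 0.02 (-0.50 to 0.51) in HC cluster 1, -1.10 in cluster 3 and -0.94 in cluster 6. YAPKO was at -1.51, -0.26 and -0.61 in these clusters, but nearly level with WT in thinned HCs (43.7 against 45.8 CPM). The direction in DKO turned with the limits read as UMIs (-0.38) and in HC cluster 1 (-1.53, -1.93 to -1.14).

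Fosb had the same order as Fos in ECs, with 40.5 CPM in WT, 6.38 in YAPKO, 6.12 in TAZKO and 16.3 in DKO. The ratios were -2.67 (-3.05 to -2.30), -2.72 (-3.20 to -2.28) and -1.31 (-1.61 to -1.03). In KCs, by contrast, it was lowest in WT, with 14.4 CPM, against 18.5 in YAPKO, 48.6 in TAZKO and 78.7 in DKO. Against WT it was 0.36 (-0.03 to 0.76) in YAPKO, 1.76 (1.41 to 2.12) in TAZKO and 2.45 (2.12 to 2.80) in DKO. Fosb in HCs was rare, with 1.21 CPM in WT, 0.937 in YAPKO, 0.432 (6 UMIs) in TAZKO and 5.93 in DKO. Its ratio was -1.49 (-3.08 to -0.15) in TAZKO, which turned to 0.69 with the limits read as UMIs and was 1.01 against 0.454 CPM after thinning, and 2.29 (1.66 to 2.98) in DKO. DKO was highest in HCs, KCs, macrophages and neutrophils. Of the 187 Fosb UMIs in HCs of DKO, 174 came from cluster 6, and cluster 1 had 0 in DKO and in WT. Fosb in HSCs was 47.6 CPM in WT, 6.10 in YAPKO, 9.83 in TAZKO and 27.5 in DKO.

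Jun and Junb encode the JUN partners of AP-1. Jun in ECs was 171 CPM in WT, 149 in YAPKO, 152 in TAZKO and 230.1 in DKO. Its ratios of -0.20 (-0.30 to -0.11), -0.17 (-0.28 to -0.07) and 0.43 (0.33 to 0.52) were small beside those of Fos in the same cells, and the ratio in YAPKO turned to 0.12 with the limits read as UMIs. In KCs it was 112 CPM in WT, 113 in YAPKO, 176 in TAZKO and 231 in DKO, with 1.05 (0.91 to 1.18) in DKO. HCs had 111 CPM in WT, 74.8 in YAPKO, 76.0 in TAZKO and 129.8 in DKO, and the limits read as UMIs turned the ratios to 0.22 in TAZKO and -0.38 in DKO, as did cluster 1 alone, at 0.74 and -0.23. DKO was highest in ECs, KCs and HCs, but not in HCs thinned to 1000 UMIs, with 94.8 CPM in WT, 73.4 in YAPKO, 95.7 in TAZKO and 92.9 in DKO.

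Junb in ECs was 108 CPM in WT, 92.5 in YAPKO, 50.4 in TAZKO and 124 in DKO, and TAZKO was lowest at -1.11 (-1.28 to -0.94). With cells assigned one by one, YAPKO was higher than WT at 0.27. In KCs the order was reversed between WT and TAZKO, with 123 CPM in WT, 124 in YAPKO, 287 in TAZKO and 197 in DKO. Against WT, TAZKO stood at 1.23 (1.10 to 1.35) and DKO at 0.68 (0.55 to 0.82). HCs had 47.4 CPM in WT, 94.0 in YAPKO, 42.0 in TAZKO and 94.2 in DKO. YAPKO and DKO were therefore higher than WT, at 0.99 (0.87 to 1.11) and 0.99 (0.88 to 1.10). In HSCs, Jun ranged from 147 to 221 CPM and Junb from 113 to 198 CPM over the 4 libraries.

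Egr1 encodes a zinc finger transcription factor that is induced through serum response elements. In ECs it was 214 CPM (205 to 223) in WT, 29.2 (26.1 to 32.6) in YAPKO, 18.8 (15.8 to 22.2) in TAZKO and 24.7 (21.4 to 28.4) in DKO. The log2 ratios were -2.87 (-3.04 to -2.70), -3.51 (-3.77 to -3.26) and -3.11 (-3.33 to -2.90). WT was highest by 7.32-fold or more. HSCs had 281 CPM in WT, 56.7 in YAPKO, 66.7 in TAZKO and 70.5 in DKO, with ratios of -2.31 (-2.63 to -1.99), -2.07 (-2.40 to -1.76) and -1.99 (-2.29 to -1.71). In HCs, Egr1 was 153 CPM in WT, 154 in YAPKO, 124 in TAZKO and 139.5 in DKO. TAZKO was lowest over all UMIs but higher than WT at 0.89 with the limits read as UMIs, and highest after thinning, with 93.5 CPM in WT, 124 in YAPKO, 151 in TAZKO and 86.8 in DKO. In HC cluster 1 the ratios were -1.34 (-1.78 to -0.92) in YAPKO, 1.36 (1.09 to 1.62) in TAZKO and -1.54 (-1.81 to -1.26) in DKO. Cluster 3 had 0.95 (0.74 to 1.17), 0.18 (-0.03 to 0.40) and 0.70 (0.50 to 0.91) in the same order. Cluster 6 had -0.20 (-0.29 to -0.12), -0.68 (-0.79 to -0.56) and 0.14 (0.07 to 0.22), so that no library kept 1 direction of Egr1 in these clusters. KCs had 69.8 CPM in WT, 12.5 in YAPKO, 57.2 in TAZKO and 97.0 in DKO. YAPKO was lowest there, at -2.48 (-2.80 to -2.17). In BECs it was 1053 CPM in WT, 209.5 in YAPKO and 948 in TAZKO.

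Nr4a1 encodes an orphan nuclear receptor. In ECs it was 13.6 CPM in WT, 6.74 in YAPKO, 4.49 in TAZKO and 6.34 in DKO, with ratios of -1.01 (-1.43 to -0.59), -1.59 (-2.19 to -1.04) and -1.10 (-1.59 to -0.63). HCs had 5.22 CPM in WT, 7.96 in YAPKO, 5.25 in TAZKO and 28.0 in DKO. DKO was 5.36-fold higher than WT, at 2.42 (2.12 to 2.74), whereas TAZKO stood at 0.01 (-0.45 to 0.46). The difference in DKO was smaller in thinned HCs (14.0 against 4.54 CPM) and in cluster 1 (1.46, 0.31 to 2.85), and 681 of the 882 UMIs in DKO came from cluster 6. In KCs Nr4a1 was 37.2 CPM in WT, 19.6 in YAPKO and 31.9 in DKO. The ratio was 0.11 (-0.17 to 0.38) in TAZKO and -0.93 (-1.23 to -0.63) in YAPKO, the only library apart from WT.

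Atf3 encodes a stress-induced factor of the ATF/CREB family. In HCs it was 4.12 CPM in WT, 5.21 in YAPKO, 1.22 in TAZKO and 12.8 in DKO. TAZKO was lower than WT at -1.75 (-2.60 to -0.98) and DKO higher at 1.64, or 3.11-fold. In thinned HCs TAZKO had 1.69 CPM against 3.18 in WT, and in cluster 1 its ratio was -0.39 (-2.46 to 1.31), on 4 UMIs. Atf3 in BECs was 238 CPM from 145 UMIs in WT, 11.1 from 5 UMIs in YAPKO and 13.3 from 4 UMIs in TAZKO. The ratios of -4.42 (-6.06 to -3.16) and -4.16 (-6.05 to -2.77) were the lowest of any member tested in any type. In ECs it was between 4.08 and 8.29 CPM, and in KCs between 19.1 and 28.2 CPM. Neutrophils had 209 CPM in WT, 76.7 in YAPKO, 67.0 in TAZKO and 96.7 in DKO.

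Ier2 and Ier3 encode small proteins of the early response, of which IER3 acts on cell survival. Ier2 in HCs was 32.5 CPM in WT, 44.5 in YAPKO, 48.0 in TAZKO and 71.7 in DKO, with ratios of 0.45 (0.30 to 0.61), 0.56 (0.40 to 0.72) and 1.14 (1.01 to 1.27). In ECs the order was different, with 75.6 CPM in WT, 52.7 in YAPKO, 37.8 in TAZKO and 59.9 in DKO. WT was highest in ECs, and lowest in HCs over all UMIs. Thinned HCs had 44.0 CPM in WT, 42.0 in YAPKO, 58.5 in TAZKO and 49.8 in DKO, with YAPKO lowest, and in cluster 1 the ratio was 0.00 in YAPKO and 0.30 (0.04 to 0.57) in DKO. Ier3 in ECs was 30.6 CPM in WT, 56.1 in YAPKO, 29.5 in TAZKO and 90.9 in DKO. The ratios were 0.88 (0.68 to 1.07) in YAPKO, -0.05 (-0.30 to 0.20) in TAZKO and 1.57 (1.38 to 1.77) in DKO. YAPKO and DKO were higher than WT and TAZKO was level with it. The same libraries were high in HCs, where 9 UMIs or 0.475 CPM in WT compared with 3.69 CPM in YAPKO, 0.648 (9 UMIs) in TAZKO and 4.28 in DKO. These gave 2.96 (1.94 to 4.15), 0.45 (-1.06 to 1.96) and 3.17 (2.21 to 4.33). Thinned HCs, with very few Ier3 UMIs, had 1.81 CPM in WT, 2.47 in YAPKO, 0 in TAZKO and 3.67 in DKO, a much smaller difference. Ier3 in neutrophils was 266 CPM in WT, 948 in YAPKO, 261 in TAZKO and 621 in DKO. NK cells had 0 Ier3 UMIs in each library.

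Myc encodes a transcription factor of growth and division. In HCs it was 1.85 CPM (1.29 to 2.57) in WT, 11.8 (10.2 to 13.5) in YAPKO, 4.82 (3.74 to 6.12) in TAZKO and 16.0 (14.7 to 17.5) in DKO. Against WT this was 2.67 (2.15 to 3.23), 1.38 (0.77 to 2.02) and 3.12 (2.62 to 3.65), and WT was lowest. ECs had 1.31 CPM from 14 UMIs in WT, 7.93 in YAPKO and 6.84 in DKO, with 11 UMIs in TAZKO. YAPKO and DKO were higher, at 2.60 (1.78 to 3.53) and 2.39 (1.52 to 3.35), whereas TAZKO stood at 0.19 (-1.09 to 1.44). In HSCs it was 4.83 CPM in WT, 18.9 in YAPKO, 12.6 in TAZKO and 20.9 in DKO. KCs had 31.9 CPM in WT, 30.3 in YAPKO, 30.2 in TAZKO and 24.1 in DKO, so that DKO alone was lower than WT, at -0.40 (-0.72 to -0.09). Across types, Myc was highest in B cells, with a mean of 49.5 CPM.

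**Figure D2:**
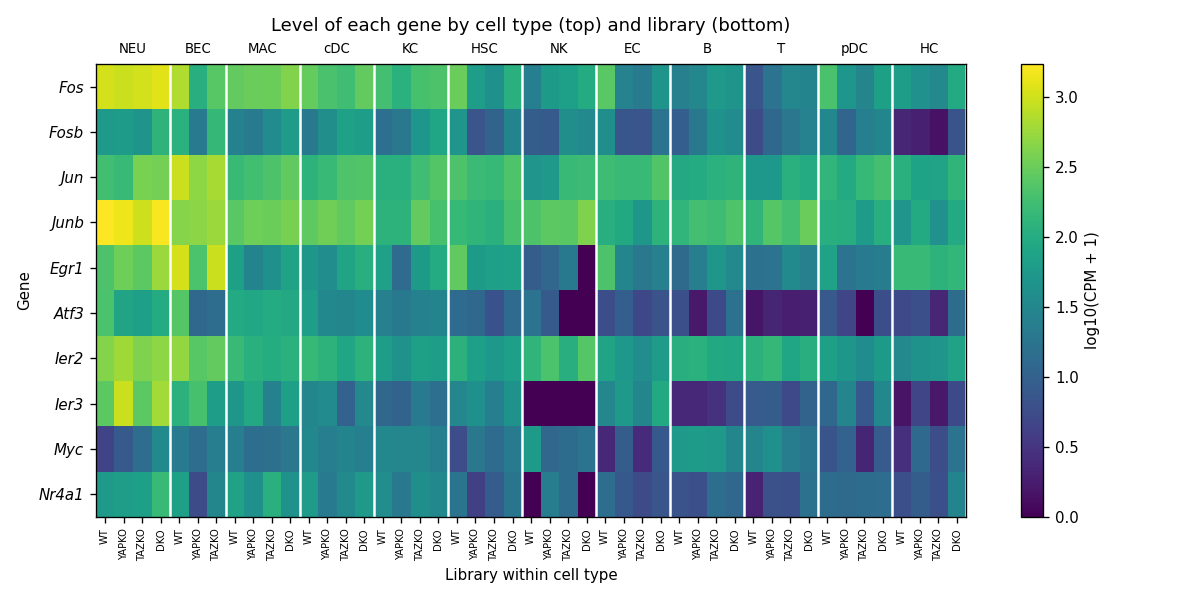
Level of each of the 10 genes by cell type and library. In ECs, Fos was 258 CPM in WT and 21.5 CPM in TAZKO.

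**Figure D3:**
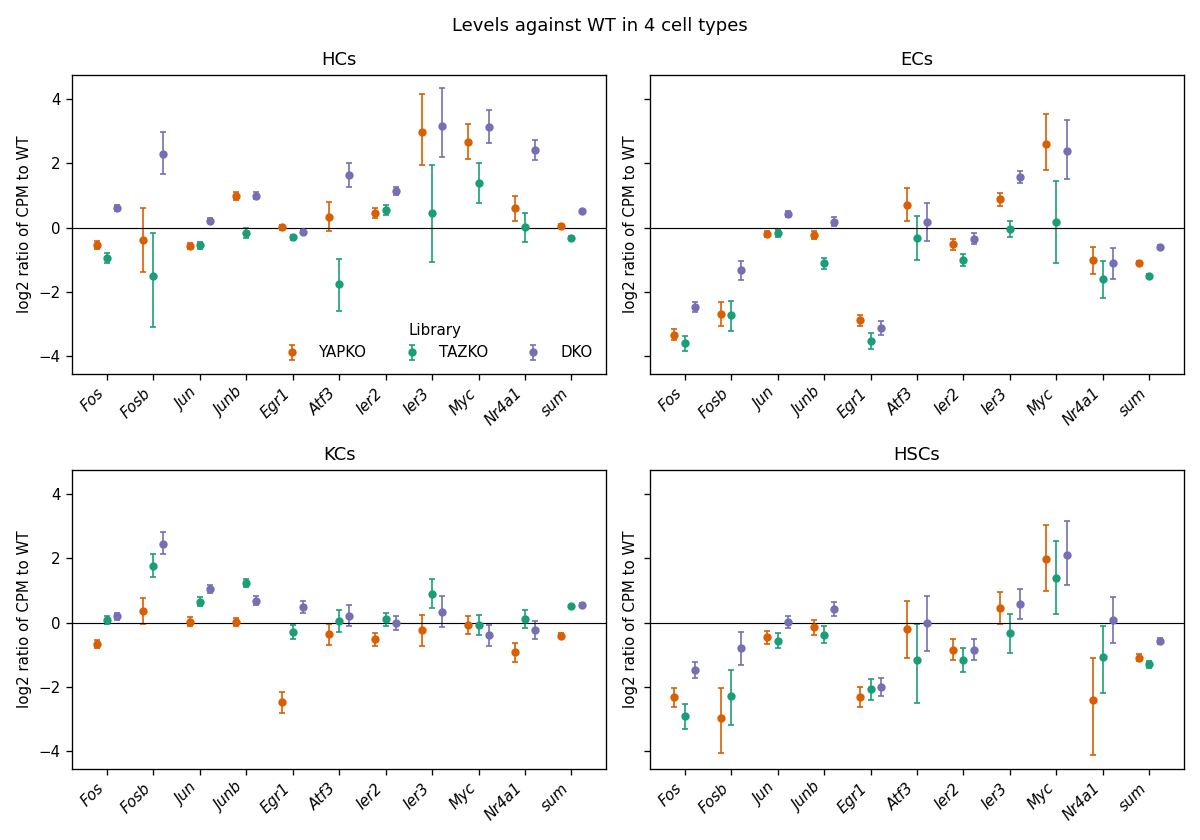
Log2 ratios to WT of the 10 genes and their sum. In ECs the sum was -1.08 in YAPKO, -1.49 in TAZKO and -0.59 in DKO.

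Members that differed at least 2-fold from WT were counted beside all genes with 20 or more UMIs in the compared libraries together. The count went by fold alone, with a count of 0 set to 3 UMIs. The members so counted had intervals clear of 0, but intervals played no part in the shares of all genes. In HCs of YAPKO, 2 members (Ier3 and Myc) were higher, as were 10.2% of all genes, and 0 members were lower, as were 1.13% of genes. Ier3 there differed less than 2-fold after thinning. In HCs of TAZKO, Myc alone of 9 tested members was higher (23.6% of genes), though not by 2-fold relative to the median of all genes (0.78). Fosb, on 6 UMIs and with a direction that turned under other limits, and Atf3, which differed less than 2-fold after thinning, were lower (1.90%). For DKO, 6 members were higher in HCs (17.0%), namely Fosb, Atf3, Ier2, Ier3, Myc and Nr4a1, and 0 were lower (2.58%). Of these, Ier2 differed less than 2-fold in thinned HCs. In ECs of YAPKO, Myc was higher (2.55%) and 4 members were lower (5.27%), namely Fos, Fosb, Egr1 and Nr4a1. ECs of TAZKO had 0 members higher (6.18%) and 5 lower (3.79%), which were these 4 and Junb. Junb there differed less than 2-fold in thinned ECs, with 57.7 CPM against 107 in WT. ECs of DKO had 2 higher (3.54%), Ier3 and Myc, and the same 4 lower (5.58%) as in YAPKO. Nr4a1 differed less than 2-fold in thinned ECs of YAPKO (7.25 CPM) and DKO (6.86), against 12.6 in WT.

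KCs of YAPKO had 0 members higher (1.35% of genes) and Egr1 lower (4.64%). In TAZKO, Fosb and Junb were higher in KCs (10.9%) and 0 members lower (4.28%). Junb there was not higher by 2-fold relative to the median of all genes (0.95). KCs of DKO had Fosb and Jun higher (4.43%) and 0 members lower (2.93%). In HSCs, Myc was the 1 member higher in YAPKO (2.30%), TAZKO (8.38%) and DKO (5.74%), with 13 UMIs in WT. Thinned HSCs had 9.35 CPM of Myc in WT, 14.4 in YAPKO, 5.43 in TAZKO and 14.8 in DKO. Each difference was then less than 2-fold, and TAZKO was lower than WT. Lower were 4 members in HSCs of YAPKO (4.32%), the same as in ECs, and 6 in TAZKO (3.16%), among them Atf3 and Ier2. Atf3 in HSCs of TAZKO, on 8 UMIs, differed less than 2-fold after thinning. In HSCs of DKO, Fos and Egr1 were lower (3.19%). The 3 comparisons of each type share WT as their control.

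The share of cells with a UMI depends on depth, and no type is known to lack these genes, so that shares are given with all UMIs and after thinning to 1000 UMIs per cell. With all UMIs, 73.6% of WT ECs, 81.7% of YAPKO, 60.4% of TAZKO and 85.8% of DKO had a UMI of at least 1 member, at median depths of 5236.5, 7608.5, 3891 and 5675 UMIs. After thinning, which left out 14, 7, 42 and 11 cells, the shares were 36.1% (34.1 to 38.2), 29.3% (26.9 to 31.8), 26.7% (24.6 to 28.8) and 40.5% (37.8 to 43.2). WT ECs thus had a larger share than TAZKO in both cases and than YAPKO only at equal depth, and DKO had the largest share in both cases. Fos was found in 12.7% of thinned ECs in WT, 2.10% in YAPKO, 2.69% in TAZKO and 3.35% in DKO, against 26.0%, 14.1%, 6.90% and 16.4% before thinning. For KCs the unthinned shares of any member were 87.3% in WT, 91.1% in YAPKO, 90.4% in TAZKO and 93.2% in DKO, at 10476.5, 16847, 4751 and 10051.5 UMIs. Thinned, with 1, 1, 35 and 6 cells left out, they were 37.0%, 32.8%, 58.4% and 58.3%, and TAZKO and DKO were high. HCs had 51.9% in WT, 65.3% in YAPKO, 54.1% in TAZKO and 66.1% in DKO, at 2142, 5959, 1819.5 and 6119 UMIs. Their thinned shares were 26.1%, 26.5%, 31.0% and 28.2%, with 0, 4, 74 and 35 cells left out, and differed less.

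Several members were often found in the same thinned cell. At least 3 members were found in 6.16% of ECs in WT, 1.09% in YAPKO, 0.504% in TAZKO and 1.83% in DKO. The product of the single shares would give 1.63%, 0.329%, 0.205% and 0.999%, so that cells with several members were more frequent than their single shares imply, most of all in WT. Over 17 pairs of members in WT ECs, the number of cells with both was 1.08 to 5.87 times the product, with a median of 2.78. The medians were lower in ECs of YAPKO (1.41 over 3 pairs), TAZKO (1.04 over 4) and DKO (1.31 over 8), but over other sets of pairs. The lowest pair was at 0.992, 0.747 and 1.02 in the same order. The 3 pairs of YAPKO, Jun with Junb, Ier2 and Ier3, were at 1.41, 0.992 and 1.56 there, against 1.62, 1.08 and 1.56 in WT. These pairs were at 1.64, 0.747 and 1.14 in TAZKO and at 1.07, 1.30 and 1.33 in DKO. On like pairs the libraries thus differed much less than their medians. The 10% of thinned cells with most member UMIs held 63.0% of these UMIs in ECs of WT, 54.0% in YAPKO, 52.8% in TAZKO and 46.1% in DKO. In KCs, 5.13% of WT cells, 1.33% of YAPKO, 5.21% of TAZKO and 6.01% of DKO had at least 3 members, against products of 1.34%, 0.582%, 4.29% and 4.50%. The excess over the product was large in WT and small in TAZKO and DKO. Neutrophils had at least 3 members in 47.2%, 57.3%, 44.4% and 55.1% of cells, against products of 44.7%, 56.6%, 41.1% and 61.6%, with little excess and DKO below the product.

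HCs came from clusters 1, 3, 6 and 21, which differed in depth and in their share of the libraries. Cluster 6, with a median of 41992 UMIs in WT, held 64.6% of the HC UMIs of WT, 67.4% of YAPKO, 51.7% of TAZKO and 47.8% of DKO. Cluster 1 held 24.3%, 17.0%, 13.3% and 37.2%, and cluster 3 held 31.3% in TAZKO, more than in the other libraries. Cluster 21 was nearly confined to TAZKO, with 130 cells and 3.68% of its HC UMIs. In cluster 6 the summed level was 516 CPM in WT, 484 in YAPKO, 329 in TAZKO and 897 in DKO, which kept the order of TAZKO, WT and DKO seen over all HCs. Cluster 1 had 199 CPM in WT, 172 in YAPKO, 345 in TAZKO and 182 in DKO, and TAZKO was highest there. In cluster 3 the sums were 340.3 CPM in WT, 540.1 in YAPKO, 368 in TAZKO and 671 in DKO. The values for all HCs therefore depend on how these clusters are mixed. Myc was higher in DKO than in WT in clusters 1 (3.70), 3 (4.31) and 6 (2.93), with 3 WT UMIs in clusters 1 and 3.

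**Figure D4:**
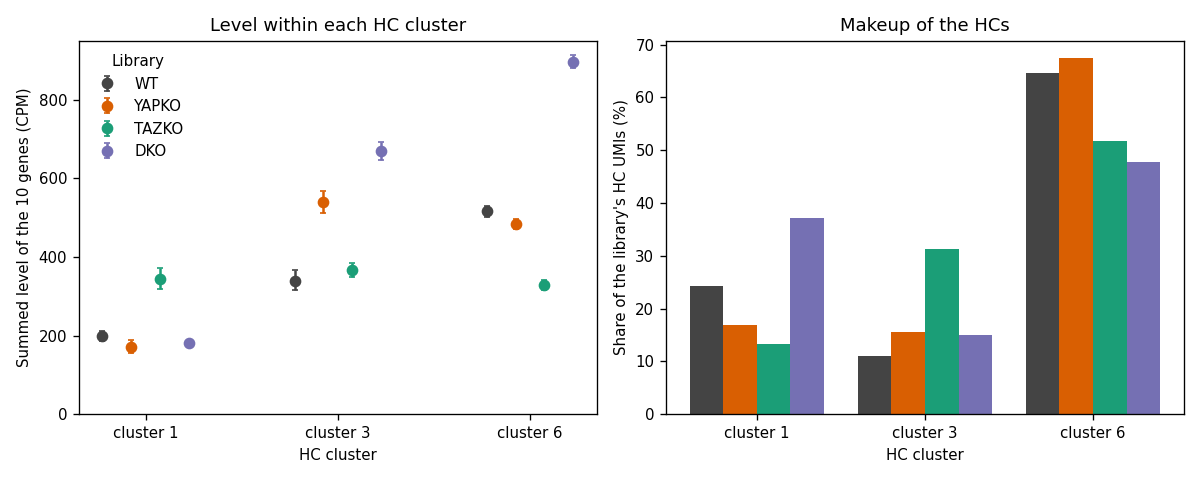
Summed level of the 10 genes in HC clusters by library. In cluster 6 it was 516 CPM in WT and 897 CPM in DKO.

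HC values were also compared by depth, mitochondrial share and zone markers. HCs had a median of 714.5 genes in WT, 1683 in YAPKO, 829.5 in TAZKO and 1775 in DKO. Their median mitochondrial share was 0.142%, 0.871%, 0.689% and 0.262% in the same order. Thinned to 1000 UMIs, all HCs had 329 CPM in WT, 377 in YAPKO, 390.5 in TAZKO and 400.1 in DKO, with WT then lowest. HCs with over 5% mitochondrial UMIs had 570.0 CPM in WT, 478 in YAPKO, 316 in TAZKO and 716 in DKO, against 398, 426, 343 and 575 in the other HCs. Within each library, HCs were divided into 3 parts by their share of periportal marker UMIs. From the most pericentral to the most periportal part, the sums were 443, 391 and 408 CPM in WT, 470.5, 447 and 385 in YAPKO, 370.1, 363 and 316 in TAZKO, and 527, 698 and 487 in DKO. The split ordered cells poorly by zone, since the middle and the most periportal parts of WT both had a median periportal share of 100%, and the middle part was deeper than the most periportal part in YAPKO (20670 against 4152 UMIs) and DKO (10344 against 5032). The parts also do not match between libraries, because the pericentral markers summed to 271 CPM in WT, 555 in YAPKO, 1520 in TAZKO and 515 in DKO. In ECs, cluster 20 had 3387 CPM in WT, 768 in YAPKO, 505 in TAZKO and 1313 in DKO from 35 to 38 cells, and cluster 0 had 872, 424, 321 and 587 CPM. WT was highest in both. The part of depth, mitochondrial share and zone in these results was not tested.

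HC marker UMIs in the other cell types differed between libraries, and free RNA was not told apart from doublets with HCs. The 8 HC markers, all found and none at 0, summed to 4951 CPM in ECs of WT, 1098 in YAPKO, 5005 in TAZKO and 1320 in DKO, with Alb most abundant (1354, 354, 2375 and 498 CPM). In KCs the sums were 2949, 947, 4780 and 2808 CPM, in HSCs 3551, 686, 4583 and 2182, and in neutrophils 12258, 4417, 13002 and 7050. TAZKO was highest and YAPKO lowest in each of these types. Their part in the member levels was not tested.

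The heat-inducible genes Hspa1a and Hspa1b were highest in WT, with NK cells as the exception. Hspa1a in ECs was 208 CPM in WT, 5.47 in YAPKO, 67.0 in TAZKO and 34.5 in DKO, and Hspa1b was 368, 14.8, 142 and 51.1 CPM. In KCs, Hspa1b was 251 CPM in WT, 20.9 in YAPKO, 158 in TAZKO and 62.0 in DKO, and in HCs it was 82.9, 11.0, 59.6 and 13.2 CPM. YAPKO was lowest in each of these types. NK cells had 169 CPM of Hspa1b from 21 UMIs in WT and 248 from 38 UMIs in TAZKO. Within WT ECs, both genes together were 457 CPM in the 1317 cells with 0 members after thinning, 649 in those with 1, 855 in those with 2 and 1143 in the 127 cells with 3 or more. In WT ECs their level was thus higher in cells with more members, at median depths of 5213 to 5503 UMIs. WT HSCs had 471, 499, 1119 and 1160 CPM in the same groups, and WT KCs 346, 479.8, 394 and 881 CPM. In ECs with 0, 1 and 2 members, the levels were 16.7 CPM (13.9 to 19.8), 19.1 (14.4 to 24.9) and 26.5 (13.2 to 47.4) in YAPKO and 203 (191 to 216), 223 (201 to 247) and 251 (195 to 317) in TAZKO, with overlapping intervals. ECs of DKO had 76.4 CPM (68.8 to 84.8) with 0 members, 97.3 (85.3 to 110.4) with 1, 96.1 (74.9 to 121) with 2 and 110.2 (61.7 to 182) with 3 or more, and only the first 2 intervals lay apart. KCs of YAPKO had lower levels with more members, at 37.5, 25.2 and 23.9 CPM for 0, 1 and 2, as did HSCs of DKO, at 88.6 and 58.4 for 0 and 1, and the intervals of the end groups overlapped in both. KCs of DKO had 104, 109, 146 and 58.8 CPM from 0 to 3 or more members, the last from 19 UMIs, and KCs of TAZKO 220.1, 237, 287 and 256 CPM. HCs with 0, 1 and 2 members had 86.4, 116 and 165 CPM in WT, 10.6, 12.1 and 21.6 in YAPKO, 60.9, 62.7 and 68.6 in TAZKO and 12.8, 16.8 and 16.2 in DKO. With 3 or more members, HCs had 103 CPM (47.3 to 196) from 9 UMIs in TAZKO and 23.3 (12.7 to 39.1) from 14 UMIs in DKO. The groups therefore did not have 1 order in all types and libraries. The order of libraries was not the same for Hspa1b and for the members, since YAPKO had the lowest Hspa1b in ECs and TAZKO the lowest member sum. The part of heat shock and of cell isolation in the member levels was not tested.

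**Figure D5:**
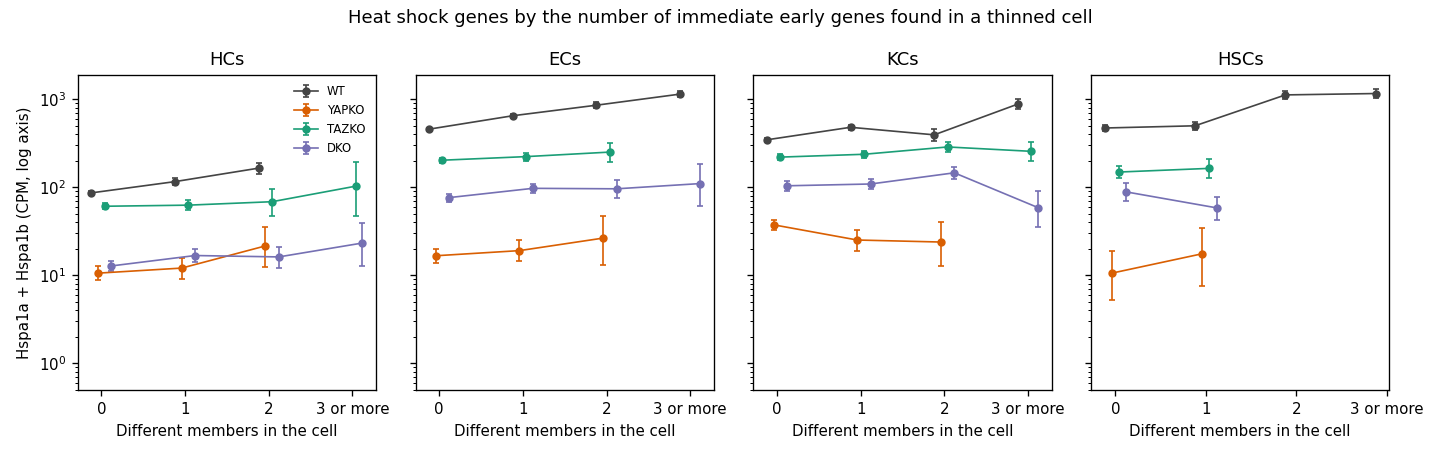
Hspa1a and Hspa1b together in cells grouped by the number of members found after thinning. In WT ECs they were 457 CPM with 0 members and 1143 CPM with 3 or more.

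Further lists were counted in the same way. Beside them, the share of all genes higher in YAPKO, TAZKO and DKO was 10.2%, 23.6% and 17.0% in HCs, 2.55%, 6.18% and 3.54% in ECs, 1.35%, 10.9% and 4.43% in KCs, and 2.30%, 8.38% and 5.74% in HSCs. The share lower was 1.13%, 1.90% and 2.58% in HCs, 5.27%, 3.79% and 5.58% in ECs, 4.64%, 4.28% and 2.93% in KCs, and 4.32%, 3.16% and 3.19% in HSCs. All 12 heat shock genes were found and none was at 0 in HCs, ECs, KCs or HSCs. Their sum in ECs was 3917 CPM in WT, 3539 in YAPKO, 3419 in TAZKO and 3163 in DKO, with Hsp90ab1 most abundant, and differed far less than Hspa1b. In HCs the sums were 3344, 3789, 3167 and 3195 CPM, in KCs 4812, 4365, 3965 and 4651, and in HSCs 4493, 3890, 3528 and 3566. Of the 12, all tested, at least 2-fold lower than WT were 3 in each HC comparison (1.13%, 1.90% and 2.58% of all genes), 2, 3 and 3 in ECs (5.27%, 3.79% and 5.58%), 2, 1 and 3 in KCs (4.64%, 4.28% and 2.93%), and 2, 3 and 3 in HSCs (4.32%, 3.16% and 3.19%), in the order YAPKO, TAZKO and DKO. Higher were 1 in HCs of TAZKO (Bag3), 2 in ECs of TAZKO (Hsph1 and Dnaja1) and 1 in HSCs of YAPKO.

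Of 33 further early response genes, all were found. In HCs, 11 of 24 tested were higher in YAPKO, 4 of 24 in TAZKO and 15 of 28 in DKO, beside 10.2%, 23.6% and 17.0% of all genes, so that TAZKO lay below the share of all genes. In HCs 0 were lower in any library. Their sum in HCs was 1056 CPM in WT, 1851 in YAPKO, 1380 in TAZKO and 1743 in DKO, with Cebpb or Zfp36l1 most abundant. ECs had 3196 CPM in WT, 3599 in YAPKO, 3299 in TAZKO and 3025 in DKO, with 4, 0 and 2 genes higher and 2, 3 and 2 lower of 28, 27 and 28 tested. The low levels of Fos and Egr1 in knock-out ECs were therefore not shared by this list as a whole. In KCs the sums were 3605, 3847, 5288 and 3404 CPM, with 1, 5 and 4 genes higher and 1, 1 and 2 lower of 26, 26 and 27 tested. HSCs had 3313, 4009, 3690 and 3503 CPM, with 3, 1 and 6 higher and 0 lower of 27, 26 and 27 tested. Klf4 in KCs was 28.9 CPM in WT, 105 in TAZKO and 60.1 in DKO, and Klf2 was 404 in WT and 168 in DKO.

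The 13 NF-kB feedback and cytokine genes were all found. In HCs they summed to 123 CPM in WT, 336 in YAPKO, 101 in TAZKO and 120.1 in DKO, with 8, 1 and 4 genes higher and 0, 1 and 0 lower of 11, 7 and 10 tested, beside 10.2%, 23.6% and 17.0% of all genes higher. In TAZKO 1 of 7 lay below that share. Ccl4 in HCs was 0.475 CPM in WT and 32.3 in YAPKO, a log2 ratio of 6.09. YAPKO was high in HCs. ECs had 477 CPM in WT, 755 in YAPKO, 352 in TAZKO and 669 in DKO, with 2, 0 and 2 genes higher and 0, 1 and 1 lower of 9, 8 and 10 tested. For KCs the sums were 859.6, 773, 882 and 820.5 CPM, with 1, 2 and 1 higher and 4, 0 and 1 lower of 13, 12 and 12 tested. HSCs had 553, 819.5, 453 and 871 CPM, with 2, 0 and 4 higher and 1, 3 and 1 lower of 10 tested in each.

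Both metallothioneins were found. Their sum in HCs was 235 CPM in WT, 2062 in YAPKO, 111 in TAZKO and 185 in DKO, with both genes higher in YAPKO and 1 lower in TAZKO. In TAZKO, 2 were lower in ECs, 1 in KCs and 2 in HSCs, with sums of 591, 85.2 and 409 CPM against 1396, 191 and 1047 in WT, and 0 differed 2-fold in the other comparisons. Of 8 unfolded protein and amino acid stress genes, 7 were found, and Ddit3 was not. In ECs they summed to 1885 CPM in WT, 2006 in YAPKO, 1626 in TAZKO and 1100 in DKO, with 1 higher in each comparison and 1, 0 and 1 lower of 7, 6 and 7 tested. For HCs the sums were 1702, 2059, 2482 and 1226 CPM, with 1, 3 and 2 higher and 0, 1 and 1 lower of 7, 6 and 7 tested, beside 10.2%, 23.6% and 17.0% of all genes higher. KCs had 1 higher and 1 lower of 5 tested in TAZKO and 0 of 6 in the other libraries, and HSCs 1 higher and 1 lower of 4 in DKO and 0 of 4 in the others.

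All 10 upstream kinases and factors were found and tested, and 4 were higher in HCs of TAZKO (23.6% of all genes, with a median of 0.60), 1 in KCs of TAZKO (10.9%), 1 in HSCs of YAPKO (2.30%) and 0 in other comparisons, with 0 lower. Of 8 YAP targets, Cyr61 and Ctgf were not found under these symbols, and Ccn1 and Ccn2, their current names, were among the 6 found. In ECs 0 of 5 tested were higher and 1, 2 and 2 lower in YAPKO, TAZKO and DKO, beside 5.27%, 3.79% and 5.58% of all genes lower. Ccn1 in ECs was 20.3 CPM in WT, 8.84 in YAPKO, 4.90 in TAZKO and 4.60 in DKO, with WT highest. Ccn2 in ECs was 122 CPM in WT and 14.6 in TAZKO, a log2 ratio of -3.07 (-3.36 to -2.78). HCs had 0, 1 and 1 higher (10.2%, 23.6% and 17.0% of all genes) and 1, 1 and 2 lower (1.13%, 1.90% and 2.58%) of 5 tested. KCs had 0, 1 and 0 higher and 1, 2 and 1 lower of 4, 5 and 4 tested, and HSCs 0, 1 and 0 higher and 1, 1 and 2 lower of 5.

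Over 42 combinations of cell type and library with 50 or more cells, the levels of 9456 genes were correlated with the summed level of the members. The points share libraries and types, and the r values are descriptive. Those most like the members were Kdm6b (0.78), Il1b (0.78), Il15 (0.76), Card19 (0.76), Mrpl33 (0.76), 1600010M07Rik (0.76), F630028O10Rik (0.76), Zfp36 (0.76), Clec4d (0.75) and Fbxl5 (0.75). Each of these genes was highest in neutrophils. Without neutrophils, r was 0.51 for Kdm6b, 0.56 for Il1b and 0.65 for Il15, and 0.33 for Fbxl5, the lowest. The median r of a member with the other members was highest for Fos (0.71) and Junb (0.70), and was 0.67 for Atf3, 0.63 for Jun, 0.60 for Nr4a1, 0.58 for Fosb, 0.57 for Ier3, 0.56 for Ier2 and 0.48 for Egr1. Myc stood apart with 0.15.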

How the data were processed

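UMI counts per gene and barcode were deposited by the authors as 1 matrix per library, made with Cell Ranger (version 6.0.1 in the processing notes, 4.0.0 in the matrix headers) against mm10 and without normalization. The members and lists were chosen with earlier results of these data known. Barcodes with 500 to 6000 genes and at most 10% mitochondrial UMIs were kept. Counts were scaled to 10000 UMIs per cell and log-transformed, cell cycle scores were regressed out, and 20 principal components of 2000 variable genes, without the members and listed genes, were corrected by library with a Harmony-like procedure written for these data, which lowered the share of neighbours from the same library from 68.0% to 43.1%. Louvain clustering used 20 neighbours and a resolution of 0.4, and 115 markers in 17 lists named the clusters where the best mean z was at least 1 and led the next by 0.5, and where at most 40% of the cells had top doublet scores, a limit set after the clusters were seen. BECs were cells of cluster 19 with at least 4 of 7 BEC markers. Cluster 19 itself stayed unnamed, since its best type, mesothelial cell, led the next by only 0.11. The Scrublet threshold called 3, 1, 3 and 1 cells in WT, YAPKO, TAZKO and DKO and so did not work, so that doublets were kept, and the top 8% of scores (543, 476, 681 and 641 cells) were left out as an alternative.

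UMIs were summed per type and library, with at least 20 cells. Intervals were Poisson for levels, conditional binomial for ratios and Clopper-Pearson for shares. A count of 0 has the level of 3 UMIs as its limit. With 1 library per genotype, no test between genotypes was made. All 10 members are named, and from each further list at most 3 genes per direction with at least 100 UMIs, and the most abundant gene. Likeness names the 10 genes with the highest Pearson r of log2(CPM+1) with the summed members, among genes with at least 2000 UMIs. Tools were Python 3.11.15, NumPy 2.4.6, SciPy 1.17.1, pandas 2.3.3, scanpy 1.11.5, python-igraph 0.11.9, scikit-learn 1.9.0 and matplotlib 3.10.9.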

Additional observations from a re-analysis of the deposited data

Results flagged for a closer look

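Barcodes with fewer than 500 genes were left out of the comparisons and looked at separately. The summed level of the 10 genes in them was 285 CPM in WT, 451 in YAPKO, 301 in TAZKO and 373 in DKO, from 6237, 941, 5465 and 676 barcodes. As log2 ratios, YAPKO lay at 0.66 (0.49 to 0.83) and DKO at 0.39 (0.20 to 0.57) against WT, whereas kept cells had -0.22 in YAPKO. Mitochondrial UMIs made up 3.20% of these barcodes' UMIs in WT, 26.4% in YAPKO, 16.0% in TAZKO and 49.7% in DKO, and the difference was not tested.

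Among HCs, ECs and KCs, some members were at least 2-fold higher than WT in 1 cell type and at least 2-fold lower in another of the same library, and for these the difference was not tested. In TAZKO, Fosb was 1.76 in KCs, -1.49 in HCs and -2.72 in ECs, and the HC value rested on 6 UMIs and turned to 0.69 with the limits read as UMIs. Junb in TAZKO was 1.23 in KCs and -1.11 in ECs. It differed less than 2-fold in thinned ECs and, in KCs, relative to the median of all genes. In DKO, Fosb was 2.29 in HCs, 2.45 in KCs and -1.31 in ECs, and 174 of its 187 UMIs in these HCs came from cluster 6. Nr4a1 in DKO was 2.42 in HCs and -1.10 in ECs, and differed less than 2-fold in thinned ECs. Over all types some contrasts were larger, such as Fos at 1.42 (0.51 to 2.46) in T cells and -3.32 in ECs of YAPKO and at 2.34 (1.48 to 3.34) and -3.58 in TAZKO, with 12 UMIs in WT T cells. Egr1 was 2.03 (1.32 to 2.82) in B cells, with 19 UMIs in WT, and -3.51 in ECs of TAZKO. Nr4a1 in YAPKO was 2.37 (0.31 to 5.52) in T cells, on 2 WT UMIs, and -3.92 (-7.01 to -1.97) in BECs, on 2 YAPKO UMIs.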

How the results depend on the processing

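Of 84 alternative values of the summed level in HCs, ECs and KCs, 46 stayed within the interval first given, 29 left it and 9 took the opposite sign of a ratio whose interval had been clear of 0. Allowing up to 20% mitochondrial UMIs and leaving out the top 8% of doublet scores left all 9 sums within their intervals. The limits read as 500 to 6000 UMIs gave other HCs, 7209 in WT, 1237 in YAPKO, 6975 in TAZKO and 1885 in DKO. With these limits, the log2 ratio in HCs was 0.25 in YAPKO, 0.36 in TAZKO and -0.07 in DKO. In ECs it was then -0.95 in YAPKO and -0.50 in DKO, and in KCs -0.74 in YAPKO and 0.66 in DKO. With at most 5% mitochondrial UMIs, HCs of TAZKO had -0.22. Assigning cells one by one from markers gave 0.02 in HCs of YAPKO, -0.67, -1.07 and -0.35 in ECs of YAPKO, TAZKO and DKO, and 0.40 in KCs of TAZKO. Relative to the median of all genes, the values were -0.36, -0.93 and 0.04 in HCs of YAPKO, TAZKO and DKO, -1.67 in ECs of TAZKO and 0.23 in KCs of TAZKO. Thinning to 1000 UMIs gave 0.20, 0.25 and 0.28 in HCs of YAPKO, TAZKO and DKO, -1.31 and -0.49 in ECs of TAZKO and DKO, and -0.50, 0.63 and 0.65 in KCs. Without mitochondrial and HC marker UMIs in the total, HCs of DKO had 0.46.

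The HC clusters and cluster 10 were taken as alternatives after the data were seen. In YAPKO, TAZKO and DKO, HCs of cluster 1 alone gave -0.21, 0.79 and -0.13, those of cluster 3 gave 0.67, 0.11 and 0.98, and those of cluster 6 gave -0.09, -0.65 and 0.80. With cluster 10 counted as KCs, the ratio was -0.30 in YAPKO and 0.38 in TAZKO. Among 179 values of single members, 104 stayed within their interval, 67 left it and 8 took the opposite sign in the same sense. Under the limits in UMIs these were 0.69 for Fosb, 0.22 for Jun and 0.89 for Egr1 in HCs of TAZKO, -0.38 for Fos and -0.38 for Jun in HCs of DKO, 0.12 for Jun in ECs of YAPKO and 0.89 for Atf3 in KCs of YAPKO. With cells assigned one by one, Junb in ECs of YAPKO had 0.27. One member and type had 0 UMIs under the limits in UMIs and no value. The cause was not tested.

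At 1.5-fold, the number of members higher was 4 in HCs of YAPKO (33.3% of all genes), 3 in ECs of YAPKO (6.87%) and 4 in KCs of TAZKO (28.7%), and the number lower was 3 in KCs of YAPKO (11.2%) and 4 in HSCs of DKO (8.92%), each of 10 tested. Relative to the median, 1 member was lower in HCs of YAPKO (2.62%), 0 were higher (6.31%) and 4 lower (6.74%) of 9 in HCs of TAZKO, and 1 was higher in KCs of TAZKO (6.50%). The other 39 of 48 numbers were equal or within 1.5 times. Shares of cells taken at other depths lay outside the interval of the shares thinned to 1000 UMIs in 210 of 240 cases. No paired analysis was possible because each genotype had 1 library from a different mouse.

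Differences between mice, perfusions and loadings cannot be told from differences between genotypes. Livers were digested with collagenase before loading, and the time from perfusion to loading was not given for the single livers. Median depth differed between libraries, and members with few UMIs, such as Ier3 and Fosb in HCs, have wide intervals. Levels relative to all UMIs of a cell depend on its other transcripts. The paper's tissue stains, serum measurements and cell line experiments were not analysed here.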
